A study of Mus musculus with 6 samples.

Results

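The genes described are 8 markers of matrifibrocytes and of fibroblasts of the late scar, Comp, Chad, Cilp, Cilp2, Meox1, Fap, Ddah1 and Clu, which were found by symbol among the 38293 genes of the count table. The question was how much of each was present in infarcted hearts with and without Zeb2 in the cardiomyocytes. RNA-seq counts were available for heart tissue of 3 Zeb2 fl/fl mice, which the labels call WT and which are also named floxed controls here, and of 3 Zeb2 cKO mice. All 6 adult C57BL/6J (backcrossed) mice, 8 to 10 weeks old at surgery by the methods of the study, had a permanent occlusion of the LAD artery, the left anterior descending coronary artery, and tissue was taken 14 days after this myocardial infarction (MI). The floxed Zeb2 alleles were shared by both groups, and the Zeb2 cKO mice carried in addition a Cre recombinase driven by the Myh6 (αMHC) promoter of cardiomyocytes, so that the Cre transgene and the deletion cannot be told apart. No sham-operated heart, other time point or Cre carrier without floxed alleles was analysed here. The labels place the tissue in the border region of the infarct, whereas the methods of the study place it in the remote zone.

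Matrifibrocytes are the fibroblasts of a mature infarct scar. In the days after an infarct, resident fibroblasts divide and become myofibroblasts, which contract and lay down collagen, and once the scar is stable they lose smooth muscle actin and take up a programme of cartilage and tendon matrix genes, of which Comp, Chad and Cilp2 are known members. Cilp, Meox1 and Fap are better known from activated fibroblasts of the stressed heart, and Ddah1 and Clu are also used by other cells of the heart. Zeb2, the deleted gene, encodes a zinc finger repressor that binds E-box-like DNA.

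The markers were highest in 1 floxed control and did not separate the genotypes. In Zeb2 fl/fl replicate 2, 7 of the 8 markers had their highest level of the 6 libraries, led by Comp and Cilp2, and the 8th, Clu, was highest in Zeb2 fl/fl replicate 3. Of the tested genes, 6 of 7 markers were highest in Zeb2 fl/fl replicate 2, beside 35.2% of all genes. The Zeb2 fl/fl and Zeb2 cKO libraries overlapped for all 8 markers. Of the 7 markers with enough counts to be tested, 0 passed an adjusted p of 0.05 in edgeR's quasi-likelihood test, where the same was true of 0.0% of the 14746 genes tested, with 280 genes at an unadjusted p under 0.05, none of them a marker. DESeq2 called 1 gene in all, which was not a marker, and limma voom called 0.

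Libraries held 37288174 to 51136331 counts, of which 14301225 to 19024394 lay outside the mitochondrially encoded genes. Zeb2 fl/fl replicate 2 stood apart from the other 5 libraries, with the lowest share of the mitochondrial ribosomal RNA mt-Rnr2 (50.3%, up to 57.1% elsewhere) and a limma quality weight of 0.147 against 0.779 to 3.62 in the others, so results are given with and without it. Zeb2 itself was present at 61.3, 116 and 71.9 CPM (counts set to a common library size after TMM scaling) in the floxed controls and at 59.6, 72.6 and 66.5 CPM in the cKO hearts. The groups overlapped (log2 fold change -0.33, SE 0.25, edgeR adjusted p = 0.957), so the transcript level in this tissue did not separate the genotypes. Without Zeb2 fl/fl replicate 2 the mean of the floxed controls was 66.6 CPM, beside 66.2 CPM in the cKO hearts. The study reports loss of ZEB2 from cardiomyocytes by qPCR and immunofluorescence. It also reports ZEB2 in other cell types of the heart, among them macrophages. Counts from a piece of heart sum all its cells, and fewer cells of a type cannot be told apart from less RNA per cell.

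Comp encodes cartilage oligomeric matrix protein, a secreted member of the thrombospondin family that binds collagen fibres (chr8:70373558-70382066, plus strand, GRCm38). It was counted 225, 6429 and 388 times in the floxed controls, or at 5.97, 146 and 10.1 CPM. In the cKO hearts it reached 5.06, 7.51 and 14.1 CPM. Zeb2 fl/fl replicate 2 lay 10.4-fold above the next library, Zeb2 cKO replicate 3, and the other 5 libraries spanned 2.78-fold, with both genotypes among them. The group means of 54.2 ± 80.0 CPM and 8.87 ± 4.65 CPM (SD, n = 3 each) gave a log2 fold change of -2.61 (SE 1.20, edgeR adjusted p = 0.957). An exact two-sided permutation test of mean log2 CPM gave p = 0.6, where the smallest p that 3 against 3 libraries allow is 0.1. When Zeb2 fl/fl replicate 2 was left out, the estimate was 0.15 (SE 0.41), on the other side of 0.

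Cilp2, the gene of cartilage intermediate layer protein 2, lies 485.9 kb before Comp on the same chromosome and on the other strand (chr8:69880369-69887687, minus strand). It was a rare transcript with 16, 181 and 6 counts in the floxed controls and 17, 10 and 15 in the cKO hearts. On the CPM scale these counts were 0.425, 4.12 and 0.156 against 0.340, 0.230 and 0.279. Zeb2 fl/fl replicate 2 was 9.71-fold above the second library, which here was Zeb2 fl/fl replicate 1, and the 3 Zeb2 cKO libraries lay between the other Zeb2 fl/fl libraries. The log2 fold change was -2.47 (SE 1.11, edgeR adjusted p = 0.957, exact permutation p = 0.6) and -0.025 (SE 0.49) without Zeb2 fl/fl replicate 2. How large a difference among the 5 other libraries these counts could show was not tested.

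Cilp, its abundant paralog, encodes a secreted matrix glycoprotein of the cartilage intermediate layer that in the heart is known to dampen TGF-β signalling (chr9:65265180-65280605, plus strand). It stood at 64.4, 274 and 86.2 CPM in the floxed controls and at 33.2, 33.9 and 90.1 CPM in the cKO hearts. Replicates 1 and 2 of Zeb2 cKO were the lowest of the 6, and Zeb2 cKO replicate 3 exceeded 2 of the 3 Zeb2 fl/fl libraries. The means were 141 ± 115 CPM and 52.4 ± 32.6 CPM (SD, n = 3 each), and the log2 fold change was -1.43 (SE 0.65, edgeR adjusted p = 0.957, exact permutation p = 0.3). Without Zeb2 fl/fl replicate 2 the estimate was -0.52 (SE 0.42), which was the only marker left under -0.2.

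Chad encodes chondroadherin, a leucine-rich repeat protein of cartilage matrix that binds collagen and integrins (chr11:94565047-94569127, plus strand). It was close to the limit of detection, with 3, 49 and 4 counts in the floxed controls and 11, 3 and 18 in the cKO hearts, and it was not tested with the other genes. Zeb2 fl/fl replicate 2 was again highest, at 1.12 CPM, followed by Zeb2 cKO replicate 3 at 0.335 CPM. The other 4 libraries held 0.0691 to 0.220 CPM. The exact permutation test of the groups gave p = 0.8, and a fit without the filter on low counts gave a log2 fold change of -1.03 (SE 0.92, edgeR adjusted p = 0.858).

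The stretches just before the start sites of Chad and Cilp are shown because both carry the letters TATAA, the core of a TATA box, at the same place. In the RefSeq promoter table (GRCm38.p6) 4 of the 8 markers were found, Chad, Cilp, Cilp2 and Ddah1. The letters TATAA on the strand of the gene, beginning between bases -40 and -20, were present in 3.38% of 32851 promoters, and in these 2 genes began at base -28. They are set in capitals in the stretches from base -95 to +5, as is the run AGGTG of Cilp.
Chad, chr11:94564952-94565051, plus strand: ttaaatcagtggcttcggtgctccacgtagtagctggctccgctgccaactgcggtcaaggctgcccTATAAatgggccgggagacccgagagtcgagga
Cilp, chr9:65265085-65265184, plus strand: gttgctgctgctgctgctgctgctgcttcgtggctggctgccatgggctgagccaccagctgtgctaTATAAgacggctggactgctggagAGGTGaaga
Neither Cilp2 nor Ddah1 had TATAA in that window. AGGTG is the reverse complement of CACCT, the short form of the E-box-like motif bound by Zeb2, which on either strand occurred in 51.9% of the promoters of 300 bases. It was found in 3 of the 4 markers, in Chad at base -235, in Cilp at base -4 and in Ddah1 at base -170, and not in Cilp2. These matches describe letters only, and binding was not measured.

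Meox1, a homeobox transcription factor of the embryonic somites that activated cardiac fibroblasts switch on (chr11:101877510-101894374, minus strand), was found at 20.4, 64.8 and 29.1 CPM in the floxed controls. The cKO hearts held 19.7, 17.7 and 30.9 CPM. The order of libraries was that of Cilp at the top, with Zeb2 fl/fl replicate 2 first by 2.10-fold and Zeb2 cKO replicate 3 second. Means of 38.1 ± 23.5 and 22.7 ± 7.10 CPM (SD, n = 3 each) gave a log2 fold change of -0.74 (SE 0.44, edgeR adjusted p = 0.957, exact permutation p = 0.4), and -0.12 (SE 0.26) without Zeb2 fl/fl replicate 2.

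Fap encodes fibroblast activation protein, a membrane-bound serine protease that cuts after proline (chr2:62500943-62574075, minus strand). Its levels were 5.79, 16.5 and 7.16 CPM in the floxed controls and 8.11, 7.28 and 8.99 CPM in the cKO hearts. All 3 Zeb2 cKO libraries exceeded replicates 1 and 3 of Zeb2 fl/fl and lay below replicate 2. The log2 fold change was -0.28 (SE 0.38, edgeR adjusted p = 0.957, exact permutation p = 1.0), and 0.33 (SE 0.15, edgeR adjusted p = 1.0) without Zeb2 fl/fl replicate 2, on the other side of 0. Of the longest Fap transcript, 3.38% of the bases were near-identical to other transcripts, against 0.0% in the other 7 markers, so a small part of its reads may be shared.

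Ddah1 encodes dimethylarginine dimethylaminohydrolase 1, which breaks down asymmetric dimethylarginine, an inhibitor of nitric oxide synthases (chr3:145758675-145894277, plus strand). It was present at 7.99, 38.2 and 7.68 CPM in the floxed controls and at 7.55, 6.36 and 8.86 CPM in the cKO hearts. The other 5 libraries lay within 1.39-fold of each other, and Zeb2 fl/fl replicate 2 was 4.31-fold above the highest of them. The log2 fold change of -1.24 (SE 0.63, edgeR adjusted p = 0.957, exact permutation p = 0.4) moved to -0.041 (SE 0.15) without that library. Ddah1 was the only marker of the 4 in the promoter table with the longer motif CACCTG, which on either strand was found in 20.2% of all promoters. It is shown in capitals in bases -217 to -118 before the start site.
Ddah1, chr3:145758475-145758574, plus strand: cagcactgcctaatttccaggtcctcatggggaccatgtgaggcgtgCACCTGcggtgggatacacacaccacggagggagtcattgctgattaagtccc

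Clu encodes clusterin, an extracellular chaperone that many stressed cells secrete (chr14:65968483-65981547, plus strand). Its levels were 141, 251 and 276 CPM in the floxed controls and 159.7, 163 and 265 CPM in the cKO hearts. It was the marker with the highest CPM except in Zeb2 fl/fl replicate 2, where Cilp reached 274 CPM. High and low libraries were found in both groups. The highest exceeded the lowest by 1.96-fold, the least of the 8 markers over all 6 libraries. Over the Zeb2 cKO libraries alone Fap, Ddah1 and Cilp2 were more even (coefficient of variation 10.5%, 16.5% and 19.3%, against 30.6% for Clu). The log2 fold change was -0.19 (SE 0.32, edgeR adjusted p = 0.957, exact permutation p = 0.9), and -0.088 (SE 0.32) without Zeb2 fl/fl replicate 2.

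**Figure D1:**
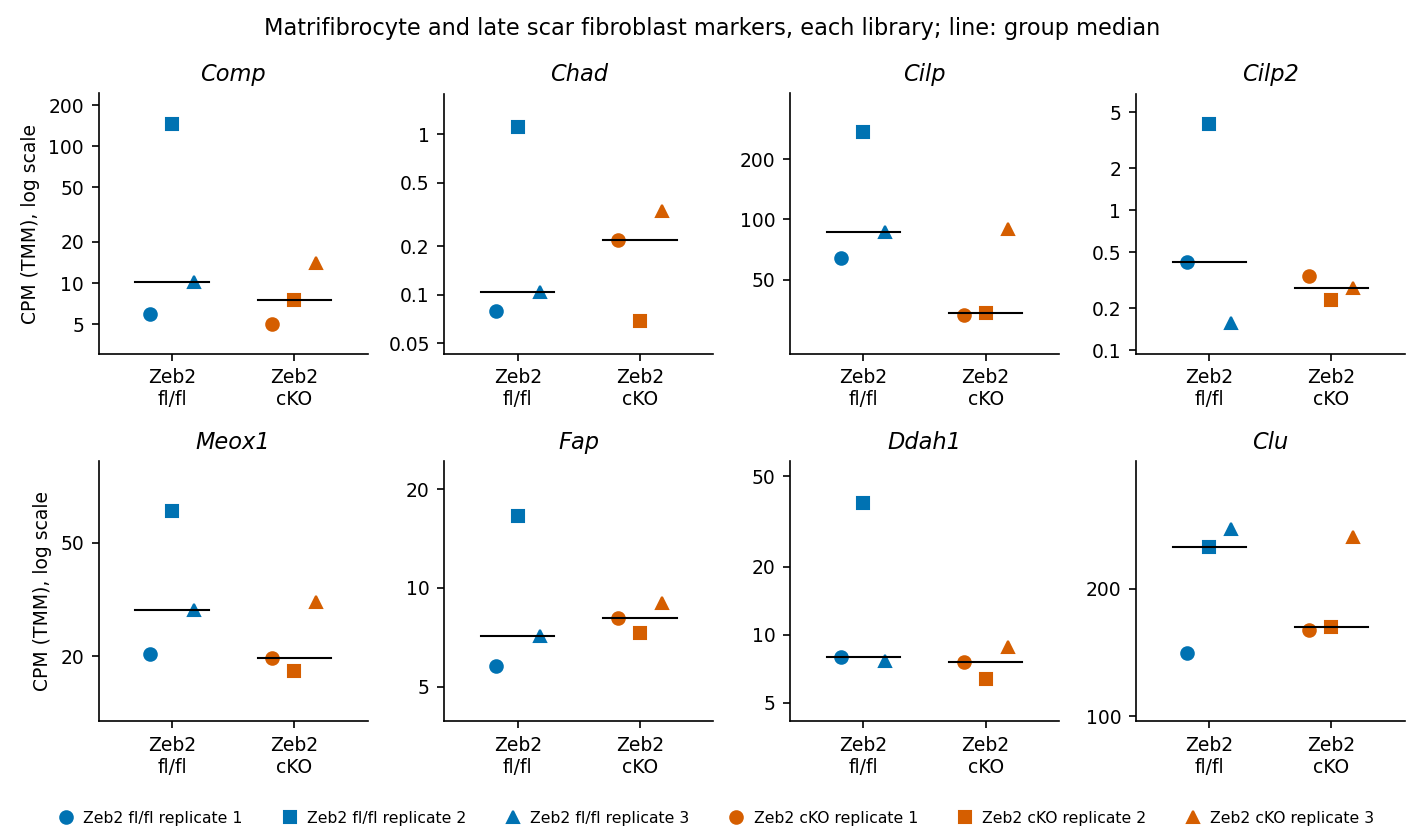
Level of each of the 8 markers in each of the 6 libraries, in CPM on a log scale that differs between panels; points are libraries (circle, replicate 1; square, replicate 2; triangle, replicate 3) and lines group medians. Zeb2 fl/fl replicate 2 is highest in 7 of 8 panels, by 10.4-fold over the next library for Comp and by 1.84-fold for Fap, whereas in the panel of Clu it is below Zeb2 fl/fl replicate 3 and Zeb2 cKO replicate 3.

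Seen over the list, 6 of the 7 tested markers had a log2 fold change under -0.2 and 0 over 0.2, where 22.6% of all tested genes were under -0.2 and 15.9% over 0.2. Under -1 there were 4 of 7, Comp, Cilp, Cilp2 and Ddah1, against 2.21% of all genes. The median over the markers was -1.24, beside -0.0069 over all genes. Among the 14746 genes only 10 had a lower log2 fold change than Comp and 17 a lower one than Cilp2, although neither passed the test. No tested marker was lower in all 3 Zeb2 cKO libraries than in all 3 Zeb2 fl/fl libraries, as 2.97% of genes were, and none was higher in all 3, as 3.39% were.

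The same counts without Zeb2 fl/fl replicate 2 were 1 of 7 under -0.2 (Cilp), where 11.7% of all genes were, and 1 of 7 over 0.2 (Fap), where 14.2% were. The median of the markers was then -0.041, beside 0.0025 over all genes. Fap was then higher in all 3 Zeb2 cKO libraries than in both remaining floxed controls, 1 of 7 tested markers, where 8.31% of all genes were. When Zeb2 cKO replicate 3 was left out instead, 3 of 7, Cilp, Meox1 and Ddah1, were lower in both remaining Zeb2 cKO libraries than in every floxed control, where 10.8% of all genes were. When Zeb2 fl/fl replicate 3 was left out, this held for 1 of 8, Cilp2, where it held for 6.48% of all genes.

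**Figure D2:**
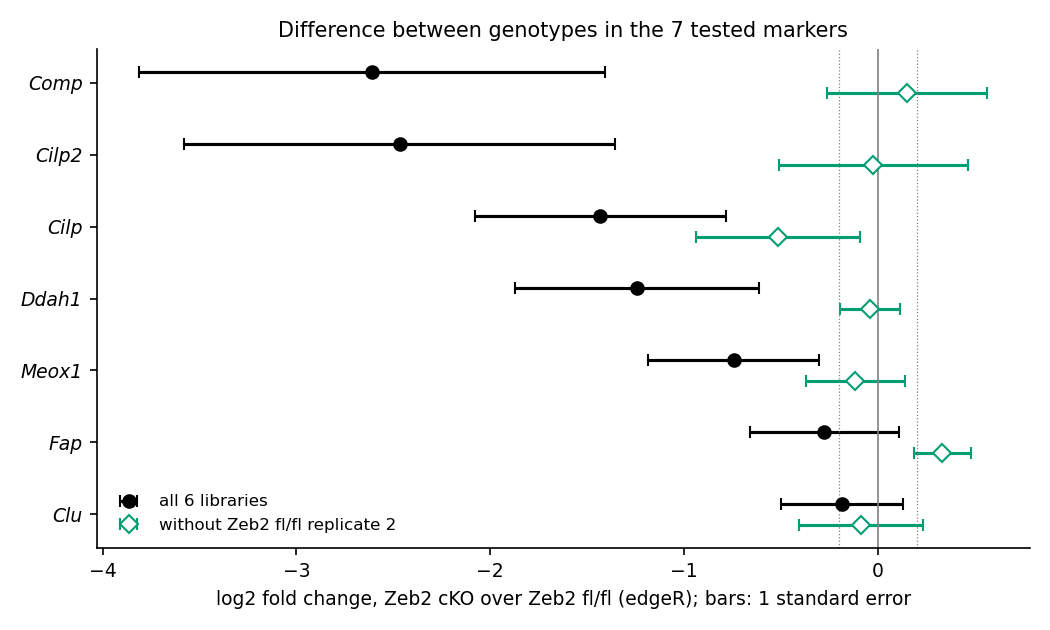
Log2 fold change of Zeb2 cKO over Zeb2 fl/fl in edgeR for the 7 tested markers, with all 6 libraries (filled circles) and without Zeb2 fl/fl replicate 2 (open diamonds); bars are 1 standard error and dotted lines mark -0.2 and 0.2. Comp moves from -2.61 to 0.15 and Cilp2 from -2.47 to -0.025, whereas Clu moves from -0.19 to -0.088.

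The size of the step at Zeb2 fl/fl replicate 2 differed between the markers. It was highest by at least 2-fold in 5 of the 7 tested markers (Comp, Cilp2, Ddah1, Cilp and Meox1), where 5.95% of all tested genes had such a step. Ranked by this gap, 8 genes of the table lay above Comp, 12 above Cilp2, 107 above Ddah1 and 286 above Cilp. The coefficient of variation over the 3 Zeb2 fl/fl libraries was 148% for Comp, 141% for Cilp2, 97.6% for Ddah1, 81.4% for Cilp, 61.8% for Meox1, 59.5% for Fap and 32.3% for Clu. Over the 3 Zeb2 cKO libraries it was at most 62.3% (Cilp) among these 7, and only 10.5% for Fap. Within the Zeb2 cKO group replicate 3 was the highest for 6 of the 7 tested markers, Cilp2 being the exception, where 36.6% of all genes had their highest Zeb2 cKO value in it.

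Per length of transcript (RPKM, the CPM divided by the exon length in kilobases), the order of the markers by their median over the 6 libraries was Clu (60.1), Cilp (17.7), Meox1 (11.1), Comp (2.97), Ddah1 (1.97), Fap (1.36), Chad (0.0964) and Cilp2 (0.0717). Clu exceeded Cilp, Ddah1 exceeded Fap and Fap exceeded Chad in 6 of 6 libraries, and the ranges of neighbours overlapped except between Fap and Chad. The order of Comp rested on the library. In Zeb2 fl/fl replicate 2 it stood at 49.4 RPKM, above Meox1 at 29.1 RPKM and near Cilp at 64.4 RPKM, whereas in the other 5 libraries Comp (1.70 to 4.74 RPKM) lay below Meox1 (7.93 to 13.8 RPKM). Chad and Cilp2 could not be ordered, since each was above the other in 3 of 6 libraries.

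The markers were also set against 18 general fibroblast genes of the same library, among them Pdgfra, the receptor that marks cardiac fibroblasts, and the proteoglycan gene Dcn. The mean log2 CPM of these genes was 5.18, 6.80 and 5.44 in the floxed controls and 5.41, 5.35 and 5.46 in the cKO hearts, so that Zeb2 fl/fl replicate 2 was highest here too. Relative to this mean Fap was the only tested marker whose groups separated. It stood at -2.64, -2.75 and -2.59 (log2) in the floxed controls and at -2.39, -2.48 and -2.29 in the cKO hearts, higher by 0.27 with an exact permutation p = 0.1, the smallest possible. Of all genes, 2.54% were higher without overlap on this scale and 0.57% lower, beside 1 of 7 and 0 of 7 markers. Against 17 activated fibroblast genes Fap was likewise higher without overlap, by 0.69 (exact permutation p = 0.1).

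The groups of the other 6 tested markers overlapped on the scale of the general fibroblast genes. Comp stood at -2.59, 0.39 and -2.10 in the floxed controls and at -3.06, -2.44 and -1.64 in the cKO hearts, so that Zeb2 fl/fl replicate 2 remained above the other 5 libraries after the fibroblast genes were taken off (difference -0.95, exact permutation p = 0.5). Cilp stood at 0.83, 1.30 and 0.99 against -0.36, -0.27 and 1.03 (difference -0.90, exact permutation p = 0.3), with only Zeb2 cKO replicate 3 inside the range of the floxed controls. Meox1 differed by -0.21 (p = 0.4), Ddah1 by -0.42 (p = 0.3), Cilp2 by -0.78 (p = 0.6) and Clu by 0.23 (p = 0.8), all by the exact permutation test. With Zeb2 fl/fl replicate 2 left out, the differences on this scale were -0.037 for Comp, -0.77 for Cilp, -0.019 for Cilp2, -0.24 for Meox1, 0.23 for Fap, -0.16 for Ddah1 and -0.15 for Clu, whose sign turned.

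**Figure D3:**
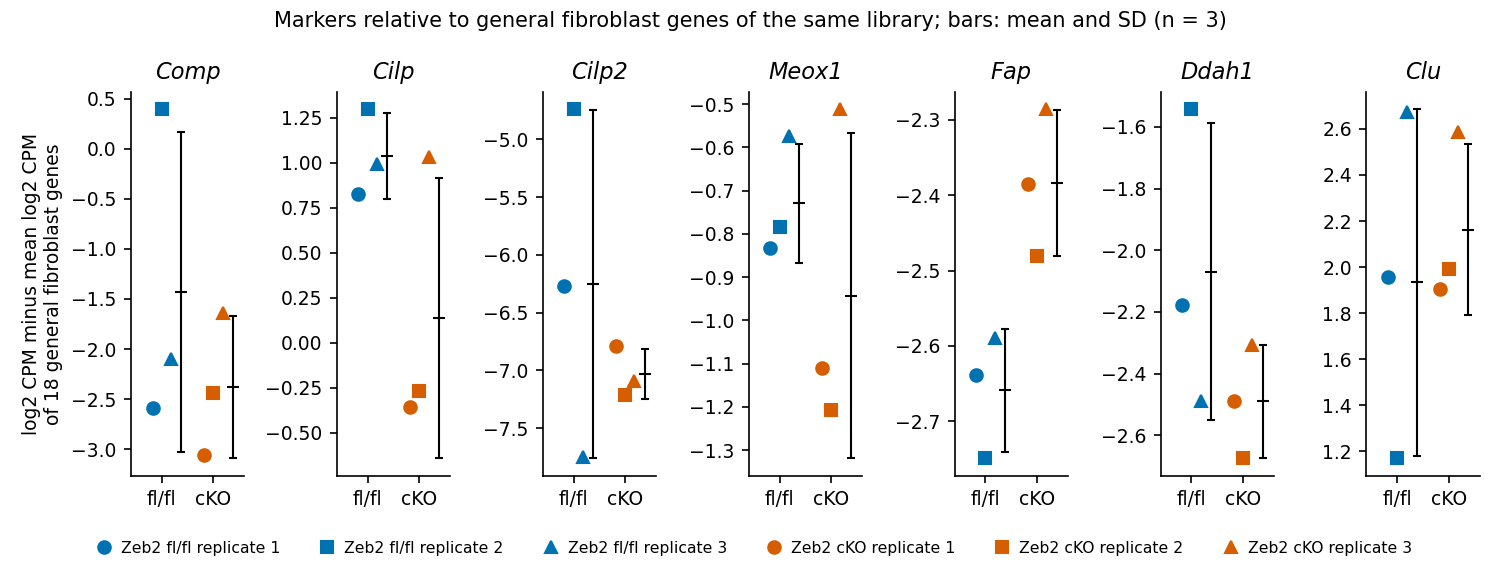
Log2 CPM of each tested marker minus the mean log2 CPM of 18 general fibroblast genes in the same library, with a separate vertical scale for each panel; points are libraries and bars give mean and SD (n = 3). In the panel of Fap the 3 Zeb2 cKO libraries (-2.48 to -2.29) lie above the 3 Zeb2 fl/fl libraries (-2.75 to -2.59), and in the other 6 panels the groups overlap.

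Ratios between the markers within a library were compared for all 21 pairs of the 7 tested markers, and in 4 of them the groups did not overlap. Cilp over Fap had log2 ratios of 3.47, 4.04 and 3.58 in the floxed controls and 2.03, 2.21 and 3.32 in the cKO hearts. Meox1 over Fap gave 1.81, 1.97 and 2.02 against 1.28, 1.27 and 1.77. Cilp over Meox1 gave 1.66, 2.08 and 1.56 against 0.75, 0.94 and 1.54, and Fap over Ddah1 gave -0.46, -1.21 and -0.10 against 0.10, 0.19 and 0.02. Thus 3 of the 4 involved Fap, which was part of 6 of the 21 pairs. Cilp was lower against both Fap and Meox1 in the cKO hearts. Each of the 4 had an exact permutation p = 0.1, which is the smallest possible and does not pass 0.05. Of all genes, 3.09% were lower relative to Fap without overlap, beside 3 of 6 markers. No such share was counted for pairs without Fap, so 4 of 21 and Cilp over Meox1 have no background here.

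The genes whose pattern over the 6 libraries was most like that of a marker were sought for the 4 tested markers that spanned over 2 on the log2 scale, Comp, Cilp, Cilp2 and Ddah1. Likeness was the root mean square difference of log2 CPM after each gene was centred on its mean. Nearest to Comp were Cthrc1 (0.22), a secreted protein of activated fibroblasts, Lox (0.27), the enzyme that cross-links collagen, and Fmod (0.27), a collagen-binding proteoglycan of tendon, where the median gene lay at 1.65. Cilp was nearest to the collagen gene Col8a1 (0.16), to Ccn2 (0.17), a matrix protein of the TGF-β response, and to Atp6v0a4 (0.18), a proton pump subunit. Cilp2 had Angptl7 (0.37), Sntg2 (0.40) and Gpnmb (0.41) as its nearest genes, and Ddah1 had Nupr1 (0.059), Atp8b4 (0.089) and Fibin (0.11). The high value of Zeb2 fl/fl replicate 2 was shared by all 12 genes, so these likenesses describe 6 libraries of which 1 sets most of the range. Cilp and its 3 nearest genes were also lowest in replicates 1 and 2 of Zeb2 cKO and near the Zeb2 fl/fl level in replicate 3.

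**Figure D4:**
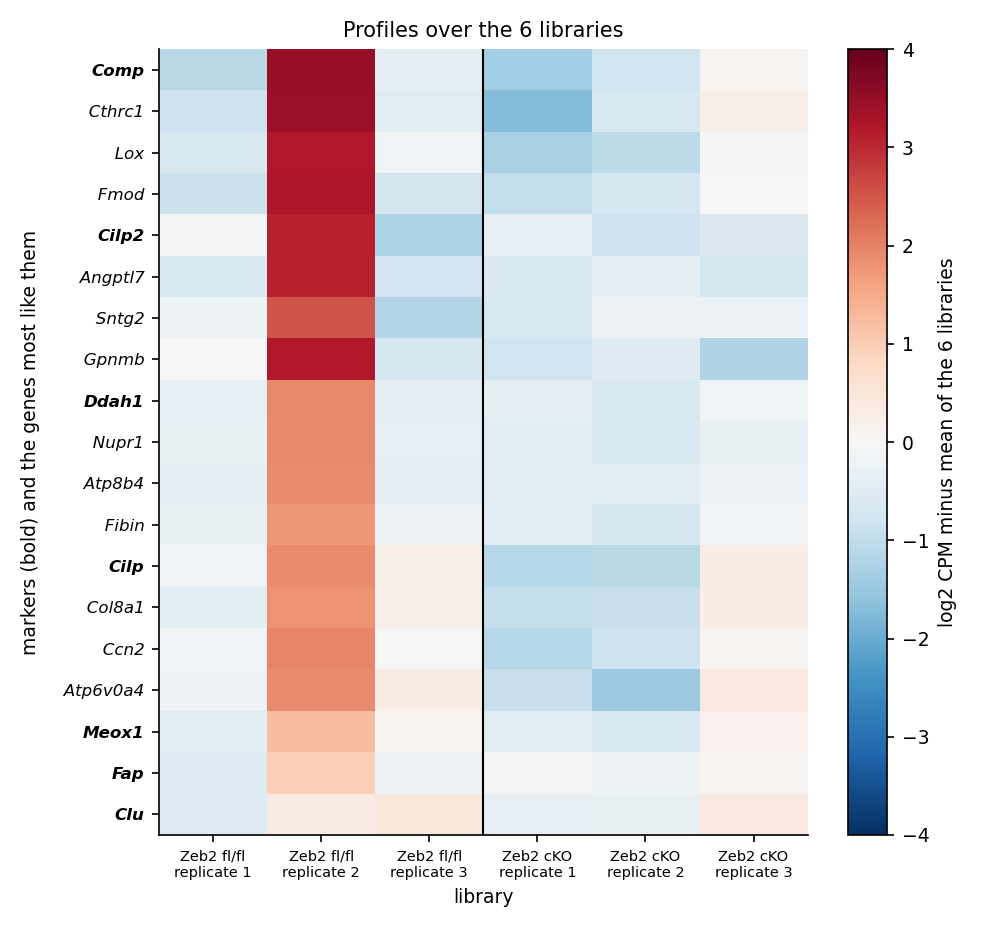
Log2 CPM of the tested markers (bold) and of the 3 genes most like each of Comp, Cilp2, Ddah1 and Cilp, minus the mean of the 6 libraries; colour runs from -4 (blue) to 4 (red) and the black line parts Zeb2 fl/fl from Zeb2 cKO. The column of Zeb2 fl/fl replicate 2 is the highest in every line but that of Clu, reaching 3.49 for Comp, and Cilp and its nearest genes are blue in Zeb2 cKO replicates 1 and 2 and pale in replicate 3.

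The step was not shared by all lists of genes with related roles. Zeb2 fl/fl replicate 2 was highest by at least 2-fold for 10 of 11 other matrifibrocyte genes and 1 of 7 prolyl peptidases. Among 11 receptors of clusterin and other extracellular chaperones it was so for 2. In no list did a gene pass an adjusted p of 0.05 in edgeR. Of 11 other matrifibrocyte genes 11 had a log2 fold change under -0.2 (median -2.11), with Col8a2, a short-chain collagen, at 4.49, 76.2 and 6.95 CPM in the floxed controls and 3.08, 3.48 and 5.17 CPM in the cKO hearts (-2.90, unadjusted p = 0.0307 in edgeR). Without Zeb2 fl/fl replicate 2 the median of this list was 0.036 and Col8a2 stood at -0.54. The 11 tested thrombospondins and partners of Comp had 11 under -0.2 (median -1.39), with Thbs1 at -1.75, Thbs2 at -1.43, Thbs3 at -0.61 and Thbs4 at -1.19. Without Zeb2 fl/fl replicate 2 the median of these genes was 0.052, with 1 under -0.2 and 2 over 0.2.

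Of 25 cartilage, bone and tendon genes only 14 had enough counts to be tested, and Snorc was at 0 in every library. Among the tested genes 10 were under -0.2 and 1 over 0.2 (median -0.38, and 0.076 without Zeb2 fl/fl replicate 2). Col11a1, a fibril collagen of cartilage, had 48.6 CPM in Zeb2 fl/fl replicate 2 and 1.12 to 1.82 CPM elsewhere (-3.40, unadjusted p = 0.0459 in edgeR, and 0.21 without that library). Sox9, the master regulator of cartilage, reached 13.5 CPM there and 1.88 to 4.45 CPM elsewhere. Sox6 was the 1 gene of the list higher in all 3 Zeb2 cKO libraries (0.35, and 0.14 without Zeb2 fl/fl replicate 2). It was lowest in Zeb2 fl/fl replicate 2, at 8.29 CPM against 13.6 to 16.7 CPM elsewhere. Of the 14 tested genes 9 were highest in that library. The cartilage proteoglycan gene Acan reached 3.12 CPM in that library and at most 0.346 CPM in the others.

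The 17 activated fibroblast genes had 16 under -0.2 (median -1.25), with Lox at -2.54 (unadjusted p = 0.0460 in edgeR, -0.30 without Zeb2 fl/fl replicate 2). Acta2, smooth muscle actin, was the exception at 0.36. It was at 85.4 CPM in Zeb2 cKO replicate 2 and at 31.1 to 47.3 CPM in the other libraries. Postn, the secreted periostin, followed the order of Cilp, with 226, 985 and 322 CPM in the floxed controls and 138, 181 and 418 CPM in the cKO hearts. The 18 general fibroblast genes had 14 under -0.2, with a smaller median of -0.49. Pi16 (-0.46), a marker of quiescent adventitial fibroblasts, was the 1 gene of that list lower in all 3 Zeb2 cKO libraries. Cd248, endosialin, was at 0.028. Without Zeb2 fl/fl replicate 2 the medians of these lists were -0.086 and 0.13.

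Around Cilp and Meox1, the 22 tested genes of the TGF-β pathway had 17 under -0.2 and 0 over 0.2 (median -0.43, and -0.12 without Zeb2 fl/fl replicate 2). The ligand genes Tgfb1, Tgfb2 and Tgfb3 stood at -0.42, -0.45 and -1.31. Smad3, a transducer of the pathway, was at 0.024. Of 12 transcription factors and cofactors near Meox1 in function 7 were tested, 5 of them under -0.2 (median -0.29, and -0.024 without Zeb2 fl/fl replicate 2), and Pax1, Nkx3-2 and Uncx were at 0 in every library. Meox2, the paralog of Meox1, was lowest in Zeb2 fl/fl replicate 2, at 8.45 CPM against 13.0 to 17.1 CPM elsewhere (0.074).

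For the enzymes, 1 of 7 tested prolyl peptidases was under -0.2 and 0 over 0.2 (median 0.0004, and 0.038 without Zeb2 fl/fl replicate 2). Dpp4, the nearest relative of Fap, had 2.31, 4.79 and 2.24 CPM in the floxed controls and 2.84, 3.18 and 2.36 CPM in the cKO hearts (-0.16), the lysosomal Dpp7 was at -0.69 and Prepl at 0.16. Each sign turned without Zeb2 fl/fl replicate 2, to 0.30 for Dpp4, 0.19 for Dpp7 and -0.13 for Prepl. Among 16 tested genes of nitric oxide and dimethylarginine turnover 4 were under -0.2 and 3 over 0.2 (median -0.058, and -0.040 without that library). Ddah2, the paralog of Ddah1, had 13.7 CPM in Zeb2 fl/fl replicate 2 and 6.61 to 10.4 CPM elsewhere (-0.38), without the step seen for Ddah1. Ass1, the enzyme that remakes arginine, was at -1.84 (unadjusted p = 0.0238 in edgeR, -0.99 without Zeb2 fl/fl replicate 2) and Nos1, the neuronal nitric oxide synthase, at 1.72 (unadjusted p = 0.0222, 1.49 without that library), both at no more than 1.62 CPM. The 11 tested receptors of clusterin and other extracellular chaperones were spread, with 5 under -0.2 and 4 over 0.2 (median 0.085, and 0.14 without that library), from Apoe at -1.12 to A2m at 0.79.

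**Figure D5:**
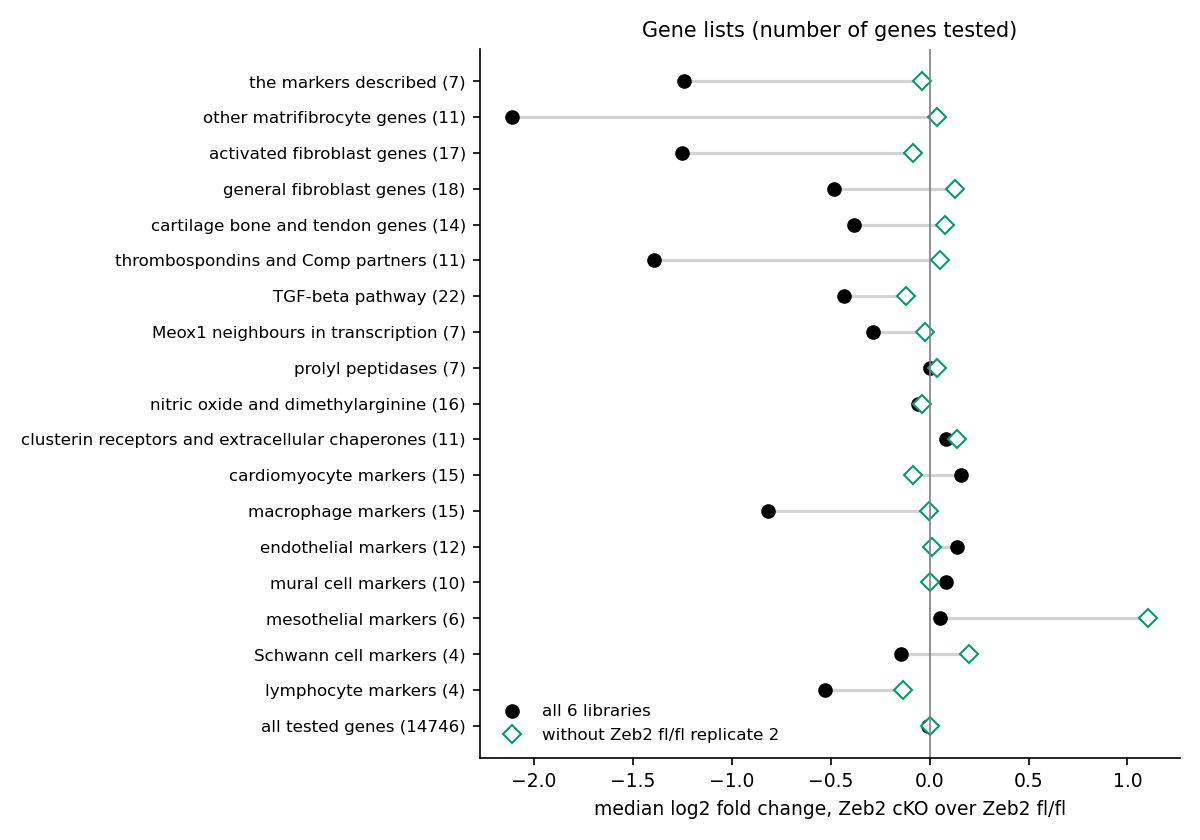
Median log2 fold change (Zeb2 cKO over Zeb2 fl/fl) of each gene list in edgeR with all 6 libraries (filled circles) and without Zeb2 fl/fl replicate 2 (open diamonds), with the number of genes tested in brackets. The markers move from -1.24 to -0.041, the other matrifibrocyte genes from -2.11 to 0.036, and all tested genes from -0.0069 to 0.0025.

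Markers of other cells moved with the same library. The summed level of 15 macrophage markers was 265, 1046 and 365 CPM in the floxed controls and 318 to 335 CPM in the cKO hearts, and 13 of the 15 were under -0.2 (median -0.82, and -0.0043 without Zeb2 fl/fl replicate 2), from Ctss at -1.47 to Cd163 at 0.42. The sum of 15 cardiomyocyte markers was lowest in Zeb2 fl/fl replicate 2, at 38616 CPM against 61262 to 74684 CPM in the other libraries, with 0 under -0.2 and 5 over 0.2 (median 0.16, and -0.087 without that library, where 1 was under -0.2 and 0 over 0.2), from Actn2 at -0.043 to Pln at 0.27. The activated fibroblast genes summed to 8530.1 CPM in that library and to 1144 to 2034 CPM in the others, and the 18 general fibroblast genes to 4135 CPM against 1444 to 1938 CPM. The 12 endothelial markers summed to 551 CPM there and to 664 to 788 CPM elsewhere (median log2 fold change 0.14, and 0.011 without that library), and Emcn was at -0.18 and Kdr at 0.27. The 10 mural cell markers (median 0.082, and 0.0003 without that library), with Pdgfrb at -0.32 and Kcnj8 at 0.29, summed to 1154 CPM in that library and 1533 to 1776 CPM elsewhere. Mesothelial, Schwann cell and lymphocyte markers were scarce, at sums of no more than 10.6, 81.1 and 2.89 CPM. Their medians were 0.052, -0.15 and -0.53 with all libraries, and 1.10, 0.20 and -0.13 without Zeb2 fl/fl replicate 2. None of these marker lists had a defining gene at 0 in every library. The part of tissue composition in the levels of Comp, Cilp, Cilp2, Ddah1, Meox1, Fap and Chad was not tested.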

How the data were processed

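RNA-seq of heart tissue was available for 3 Zeb2 fl/fl (labelled WT) and 3 Zeb2 cKO mice, assigned from the sample labels. The file the authors deposited holds raw read counts of every gene. By their methods, stranded libraries were made from RNA without ribosomal RNA, and reads were aligned with STAR and counted on Gencode M4. How reads with several matching places were counted is not given in the sources used here, and this could affect Fap. Each column was matched to 1 sample, and 0 were left over.

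Symbols, coordinates and exon lengths were matched by gene identifier in Gencode M21, which is on the same build (GRCm38). Counts were normalized with TMM and filtered with filterByExpr in edgeR 4.0.16 (R 4.3.3), and genotype was tested with glmQLFit and glmQLFTest, with Benjamini-Hochberg adjustment over the 14746 genes kept. The standard error is the log2 fold change over the square root of F. The cutoff of 0.2 on the log2 scale was that of the study. Exact two-sided permutation tests used log2(CPM + 0.1) for single genes and were run in SciPy 1.17.1. RPKM used TMM-scaled library sizes and the merged exon length. DESeq2 1.42.0, limma 3.58.1 voom with quality weights, other scalings and filters, a replicate block and leaving out each library were alternatives, and the fits were tested on simulated data.

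The genes named are the 8 markers, Zeb2, from each list the tested gene with the smallest p in each direction, and the 3 nearest genes of markers spanning over 2 on the log2 scale. The lower gene of 2 lists that this rule names is not reported here. Others in the text (relatives of a marker, Sox9, Acan, Postn, the TGF-β ligands) were chosen after their values were seen. The markers and lists were chosen with earlier results of these data known, and a list is described by its counts and median without a test. Each library came from 1 mouse, so n counts mice. With 14301225 or more counts outside the mitochondrially encoded genes in each library, Chad and Cilp2 had under 20 counts in most libraries, and the other markers had 218 or more in each.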

Additional observations from a re-analysis of the deposited data

How the results depend on the processing

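No marker passed an adjusted p of 0.05 under any of the 16 alternatives in the fits that gave one, and DESeq2 gave none for Comp. Leaving out each library in turn, the number of markers under -0.2 ranged from 1 (without Zeb2 fl/fl replicate 2) to 8 (without Zeb2 fl/fl replicate 1, where Chad was tested too), over 0.2 from 0 to 1, lower in every Zeb2 cKO library from 0 to 3 and higher in every Zeb2 cKO library from 0 to 1, and the median from -1.56 to -0.041. Comp ranged from -3.14 to 0.15, Fap from -0.54 to 0.33 and Clu relative to the fibroblast genes from -0.15 to 0.60, each reversed without Zeb2 fl/fl replicate 2. With limma voom quality weights 4 markers were under -0.2 and 1 over 0.2, with a median of -0.39. In that fit Comp was at -0.39, Cilp2 at 0.30 and Fap at 0.15. Meox1 was at 0.20 relative to the activated fibroblast genes. Other scalings, filters and priors reversed no marker. Same-numbered mice did not deviate together (r over genes 0.088, -0.14 and -0.087), and the replicate block left 0 markers called, 5 under -0.2 and a median of -0.78.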
